A study of Mus musculus with 2 samples.

Results

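The neural microRNAs described here are 10 genes, Mir128-1, Mir128-2, Mir137, Mir132, Mir212, Mir124a-1, Mir124a-2, Mir124a-3, Mir9-2 and Mir9-3, of the 1973 microRNA genes counted in the limb of the mouse embryo. They were taken by name, as microRNAs best known from nervous tissue, with earlier results of these data known. They comprise 3 single-copy genes (Mir137, Mir132 and Mir212) and 7 genes of the multi-copy families miR-128, miR-124 and miR-9. Small RNA shorter than 30 nucleotides, per the labels, was sequenced from limbs of healthy B6NCrl embryos of both sexes at 12.5 days of development. The study has 1 group with 2 biological replicates, so no condition is compared. The limbs of 88 embryos were pooled for replicate 1, which holds 4525636 gene counts, and those of 68 embryos for replicate 2, which holds 3604284. Levels are counts per 1000000 gene counts (CPM) on the gene's own strand, given as the mean ± SD with n = 2. Each count covers a whole hairpin and was not scaled by gene length, and how well each sequence was recovered was not measured.

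MicroRNAs are cut from RNA hairpins into arms of about the length of the reads counted here, and an arm pairs with messenger RNAs mainly through its seed, the bases 2 to 8 from the 5′ end. miR-124 is among the most abundant microRNAs of neurons and represses transcripts of non-neuronal cells. miR-9 acts in neural progenitors, miR-128 and miR-137 are enriched in neurons, and miR-132 and miR-212 are induced by neuronal activity through the transcription factor CREB. In the embryonic limb the axons of motor and sensory neurons grow in, with their glial cells, while the neuronal cell bodies lie outside, in the spinal cord and the dorsal root ganglia.

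Sequences of 7 of the 10 genes were matched in RefSeq (GRCm38.p6), all but those of the Mir124a genes. The mature arms are shown first because their copy number decides which reads can be assigned to 1 gene, with the seed in capitals.
miR-137-3p: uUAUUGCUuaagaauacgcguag
miR-132-3p: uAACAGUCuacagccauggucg
miR-212-3p: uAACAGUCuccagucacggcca
miR-128-3p: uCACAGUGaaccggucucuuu
miR-128-1-5p: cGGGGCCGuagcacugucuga
miR-128-2-5p: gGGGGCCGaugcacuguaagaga
miR-9-5p: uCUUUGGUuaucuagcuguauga
miR-9-3p: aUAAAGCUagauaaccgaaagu

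miR-132-3p and miR-212-3p hold the same seed and are identical over their first 9 bases and at 17 of 22 positions. The 5p arms of the Mir128 genes also hold 1 seed, while the 3p arm is identical in both. No other mature microRNA of the table holds any of these seeds except the arms of Mir9-1, another miR-9 gene, for which no level was analysed here. Both arms of Mir137, Mir132 and Mir212 occur in no other of the 1005 hairpins in the RefSeq table. Of the Mir128 genes the 5p arm is found in its own hairpin alone and the 3p arm in both. Both miR-9 arms occur in all 3 miR-9 hairpins, so a read of a full miR-9 arm fits more than 1 place. The deposited tables set such reads apart: 27.2% of all reads in replicate 1 and 23.7% in replicate 2 were counted as mapping to several places and given to no gene.

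The hairpins of the Mir128 pair show how much of each is shared, with the longest common stretch, 23 bases over the 3p arm, in capitals.
Mir128-1: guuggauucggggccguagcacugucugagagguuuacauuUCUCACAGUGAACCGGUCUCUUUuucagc
Mir128-2: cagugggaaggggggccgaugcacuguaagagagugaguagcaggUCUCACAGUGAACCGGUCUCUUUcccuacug
Mir128-1 lies at chr1:128202361-128202430 on the plus strand of mm10, in an intron of R3hdm1, and Mir128-2 at chr9:112118636-112118711 on the minus strand, in an intron of Arpp21. Of the stretches of 20 bases in each hairpin, 47 of 51 in Mir128-1 and 53 of 57 in Mir128-2 occur in no hairpin elsewhere. The hairpins of the miR-9 pair differ in their loops and flanks, with both arms in capitals.
Mir9-2: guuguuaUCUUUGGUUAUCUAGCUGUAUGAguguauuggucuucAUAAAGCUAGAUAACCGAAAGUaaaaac
Mir9-3: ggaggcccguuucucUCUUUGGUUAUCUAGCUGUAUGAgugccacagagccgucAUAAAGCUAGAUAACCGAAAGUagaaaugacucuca
Mir9-2 lies at chr13:83738814-83738885 in an exon of C130071C03Rik, a long non-coding RNA gene, and Mir9-3 at chr7:79505264-79505353 in an intron of Mir9-3hg, both on the plus strand. Of the 20-base stretches, 25 of 53 in Mir9-2 and 58 of 71 in Mir9-3 occur in no hairpin elsewhere.

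Counts fell on 6 of the 10 neural microRNA genes, beside 717 of all 1973 genes. Mir128-1 and Mir137 had the highest mean levels of the 10, by reads that could be assigned. Of the 10 genes, 4 reached 10 CPM in both libraries, the level called detected here, beside 14.5% of all 1973 genes. They were the single-copy Mir137 and Mir132 and the multi-copy Mir128-1 and Mir128-2, and they stood between ranks 169 and 205 of all genes by mean level. Mir212 and Mir9-3 gave a few counts. Mir9-2 and the genes Mir124a-1, Mir124a-2 and Mir124a-3 gave 0 counts in both libraries, as did 63.7% of all genes. Taken as a limit of 3 counts per library, a count of 0 allows up to 0.663 CPM in replicate 1 and 0.832 CPM in replicate 2 for reads that could be assigned. The 95% Poisson interval, used below for genes with counts, ends higher for 0 counts, at 0.815 and 1.02 CPM. All 10 together held 0.0412% of the counts in replicate 1 (95% Clopper-Pearson interval 0.0393 to 0.0431) and 0.0547% in replicate 2 (0.0523 to 0.0572). Intervals and limits cover counting error only, because PCR can copy 1 molecule into many reads. In bulk tissue, fewer cells of a type and less RNA per cell cannot be told apart.

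**Figure D1:**
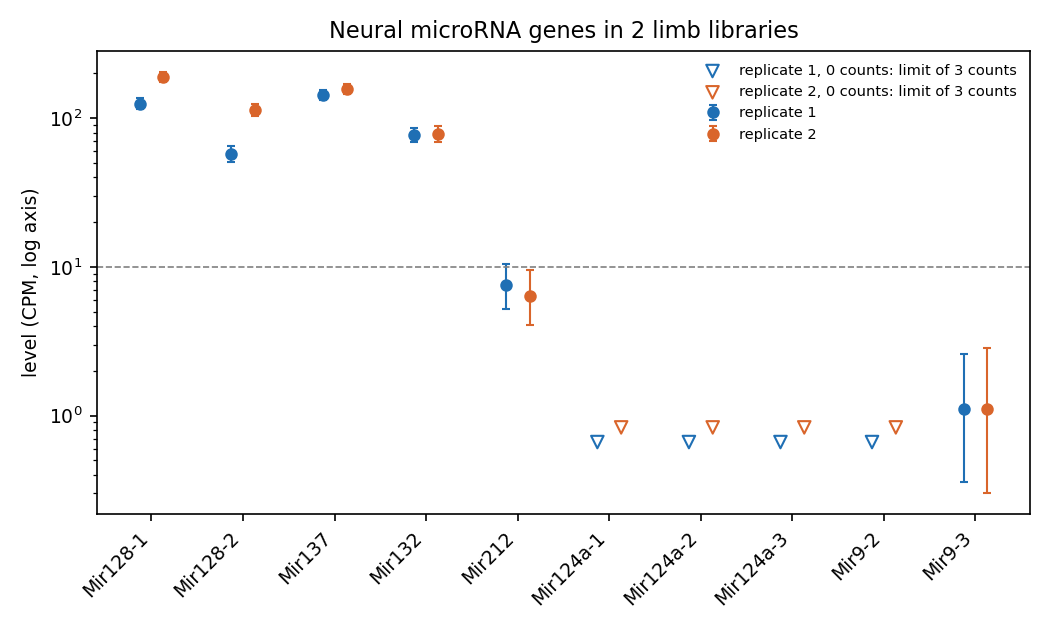
Level of each gene in CPM on a log axis, by library. Points are libraries and bars are 95% Poisson intervals. Open triangles mark the limit of 3 counts for genes with 0 counts, and the dashed line is 10 CPM. Mir128-1, Mir128-2, Mir137 and Mir132 lie above the line in both libraries, and Mir128-1 and Mir128-2 show separated intervals between the libraries.

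Among the single-copy genes, Mir137 was the highest and Mir212 the lowest. Mir137, whose product restrains the maturation of young neurons in mice, lies at chr3:118433857-118433929 on the plus strand, in an exon of the non-coding gene Gm26871. It gave 651 counts in replicate 1 and 569 in replicate 2, or 144 and 158 CPM (151 ± 9.91). The 95% Poisson intervals of the libraries, 133 to 155 and 145 to 171 CPM, overlapped.

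Mir132 and Mir212 lie 203 bases apart on the plus strand of chromosome 11, both in an intron of the non-coding gene 1700016P03Rik, Mir212 at chr11:75173388-75173478 and Mir132 at chr11:75173682-75173747. They are known to be cut from 1 primary transcript. Mir132 gave 350 and 282 counts in replicates 1 and 2, or 77.3 and 78.2 CPM (77.8 ± 0.639). Mir212 gave 34 and 23 counts, or 7.51 and 6.38 CPM (6.95 ± 0.8), below 10 CPM in both libraries. Mir132 therefore stood far above its neighbour with the same seed. The ratio of Mir132 to Mir212 was 10.3 in replicate 1 (95% exact interval 7.23 to 15.1) and 12.3 in replicate 2 (8.01 to 19.7), with a mean of 11.3 ± 1.39. The libraries did not differ in this ratio beyond counting error, as each ratio lay inside the interval of the other. Together the pair held 0.00848% and 0.00846% of the counts. Mir137 exceeded Mir132 by 1.86 times in replicate 1 (1.63 to 2.12) and 2.02 times in replicate 2 (1.75 to 2.34), so the order Mir137, Mir132, Mir212 was the same in both libraries with no overlap of the intervals within a library.

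The Mir128 pair was detected through reads that could be placed on 1 copy. Mir128-1 gave 565 counts in replicate 1 and 684 in replicate 2, or 125 and 190 CPM (157 ± 45.9). Mir128-2 gave 259 and 410 counts, or 57.2 and 114 CPM (85.5 ± 40). Both genes were higher in replicate 2. Among reads placed on 1 copy, Mir128-1 exceeded Mir128-2 in both libraries, by an amount that varied between them. The ratio was 2.18 in replicate 1 (1.88 to 2.54) and 1.67 in replicate 2 (1.47 to 1.89). The ratio of the full levels was not measured. How many of these reads came from the 5p arm, which no other annotated hairpin holds, was not measured. A read inside the shared stretch fits both hairpins, so levels may be higher than these values.

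The order of neighbours in level was not resolved between the copy classes. Replicate 1 placed Mir137 above Mir128-1 and Mir132 above Mir128-2, and replicate 2 placed each pair the other way. Mir128 values leave out reads that fit both hairpins, while both arms of Mir137 and Mir132 occur in no other annotated hairpin. The order by full level was therefore not measured. The ratio of Mir128-1 to Mir137 was 0.868 in replicate 1 (0.774 to 0.973) and 1.2 in replicate 2 (1.07 to 1.35). Mir212 and Mir9-3 followed in both libraries.

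Of the miR-9 and miR-124 genes, Mir9-3 alone gave counts. It had 5 counts in replicate 1 (1.1 CPM, 95% Poisson interval 0.359 to 2.58) and 4 in replicate 2 (1.11 CPM, 0.302 to 2.84), too few to rank it beside genes near it. Mir9-2 had 0. Mir124a-1 (chr14:64590657-64590741, in an exon of Mir124a-1hg), Mir124a-2 (chr3:17795662-17795770, in an exon of Mir124-2hg) and Mir124a-3 (chr2:180894040-180894107, in an exon of Gm27032), all on the plus strand, had 0 as well. No gene of the 10 had a count on the opposite strand. Since reads with several places were set apart, a count at or near 0 limits only the reads unique to that hairpin, and the level of mature miR-9 and miR-124 in the limb was not measured by these values. For the Mir124a genes no sequence was matched, so how far their arms are shared was not examined.

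The position of the neural genes by arm copies can be set beside all counted genes with RefSeq arms. Of the 858 counted genes with RefSeq arms, 32 had every arm in a hairpin elsewhere, as Mir9-2 and Mir9-3 do. Of those 32 genes 71.9% had 0 counts in both libraries and 21.9% were detected, with a median of 0 CPM. Among 49 genes with 1 arm of their own, as in the Mir128 pair, 59.2% were detected with a median of 31.4 CPM. Among 777 genes whose arms are all their own, as in Mir137, Mir132 and Mir212, 27.4% were detected with a median of 0.581 CPM. Over all 858 genes 29% were detected and 33% had 0 counts in both libraries, with a median of 0.637 CPM. These classes differ in which genes they hold as well as in copies, so the shares are a description.

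Among the 5 neural genes with enough counts to test, the Mir128 pair differed most between the libraries. Of the 10 genes, 5 had 10 or more counts in the sum and were tested between the libraries, and 2, Mir128-1 and Mir128-2, passed a two-sided exact binomial test at a Benjamini-Hochberg adjusted p under 0.05. In that test 41.7% of 436 genes passed, 20.4% as higher in replicate 2, so a share of this size is common among all genes. The test sets these libraries against counting error and compares no conditions. Mir128-2 was 1.99 times higher in replicate 2 (log2 ratio 0.99, counting SE 0.11, adjusted p 1.18e-17 by the exact binomial test). Mir128-1 was 1.52 times higher (log2 ratio 0.60, SE 0.08, adjusted p 9.15e-13 by the exact binomial test). With the spread that all genes show between these libraries, a biological coefficient of variation of 16.4%, edgeR's negative binomial exact test called neither, with adjusted p of 0.34 for Mir128-2 and 0.942 for Mir128-1. That test called 0 of 436 genes, with 25 at an unadjusted p under 0.05, among them Mir128-2 (0.00508) and not Mir128-1 (0.0756). Its spread was estimated from the same 2 libraries that it compared, so the difference between them was itself taken as error. The negative binomial test therefore cannot decide whether the Mir128 pair differs.

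Mir137 (log2 ratio 0.13, SE 0.08), Mir132 (0.02, SE 0.12) and Mir212 (-0.23, SE 0.39) did not pass, with adjusted p of 0.209, 0.948 and 0.719 in the exact binomial test. Of 71 genes at a mean of 50 to 200 CPM, whose log2 ratios ran from -0.65 to 1.00 with an SD of 0.37, Mir128-2 had the second highest ratio, Mir128-1 ranked 5 and Mir132 ranked 38. The Mir128 pair made up 44.2% of the counts of the 10 genes in replicate 1 and 55.5% in replicate 2. The 3 single-copy genes held 0.0229% of all gene counts in replicate 1 (0.0215 to 0.0243) and 0.0242% in replicate 2 (0.0227 to 0.0259), which overlap. The multi-copy genes held 0.0183% (0.0171 to 0.0196) and 0.0305% (0.0287 to 0.0323), which do not overlap. This restates the Mir128 difference, as the pair gave 824 of their 829 counts in replicate 1 and 1094 of 1098 in replicate 2. The other 5 multi-copy genes gave 5 and 4 counts. The share of reads with several places also differed between the libraries, at 27.2% and 23.7%, as did the unmapped share, at 23.8% and 32.6%, and their part in the Mir128 difference was not tested.

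**Figure D2:**
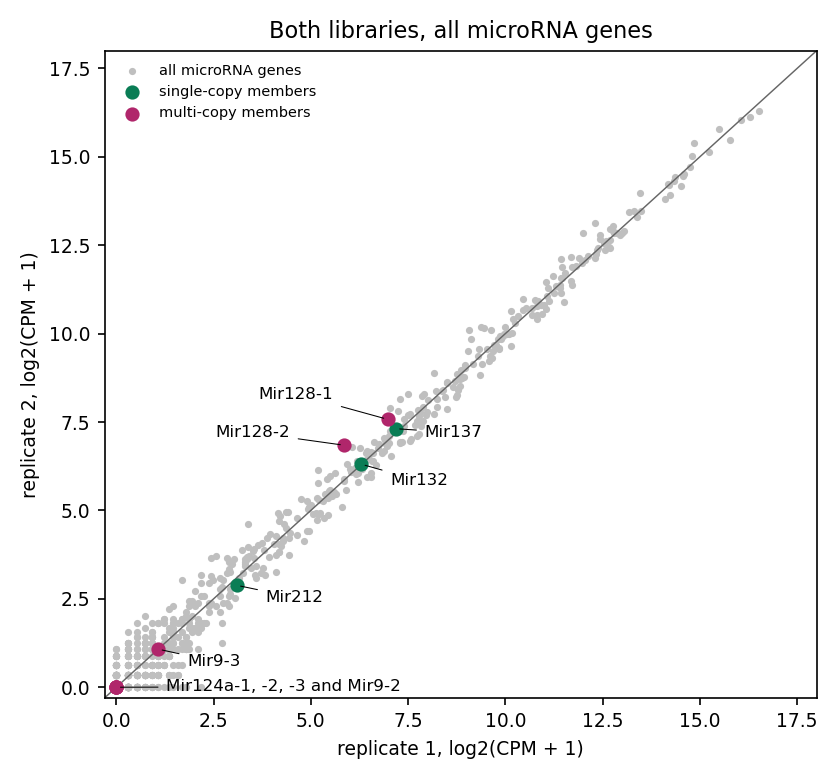
Level of every microRNA gene in replicate 2 against replicate 1, as log2(CPM + 1), with the line of equal levels; green points are single-copy and magenta points multi-copy neural genes. Mir137, Mir132 and Mir212 lie near the line, Mir128-1 and Mir128-2 lie above it, and Mir9-2 shares the point at 0 with the Mir124a genes.

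A list of 20 further microRNA genes known from nervous tissue was placed beside these 10. Of the 20, 18 were measured and 13 were detected, beside 14.5% of all genes, with a median of 20.2 CPM over the 18 beside 0 CPM over all genes. The list was chosen with earlier results of these data known. Mir134, whose product limits dendritic spines in neurons and whose gene lies in the imprinted Dlk1-Dio3 cluster, led at 959 ± 231 CPM. Mir7-1, whose mature form is known from neurosecretory cells, stood at 84.8 ± 0.896 CPM. Mir138-2, whose mature form acts in dendritic spines, followed at 73.7 ± 17.9 CPM, with its copy Mir138-1 at 52.4 ± 8.64. Mir218-2, in an intron of Slit3 and known from motor neurons, stood at 69.4 ± 5.22 CPM and its copy Mir218-1 at 11.9 ± 2.07. Apart from Mir134, every measured gene of the list lay below Mir137 and Mir128-1 in both libraries, whereas Mir128-2, at 57.2 CPM in replicate 1, lay below several of them there, among them Mir138-2 at 86.4 CPM and Mir7-1 at 84.2 CPM.

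Mir338 and Mir219a-2, known from myelinating glia of the central nervous system, reached 70.2 ± 0.756 and 16.4 ± 1.2 CPM, and Mir219a-1 57.5 ± 1.04. Mir153, Mir383, Mir326 and Mir488 completed the detected genes, between 33.3 ± 5.1 and 17.3 ± 1.39 CPM. The lowest measured genes, Mir129-1 and Mir129-2, stood at 0.47 ± 0.273 and 0.997 ± 0.16 CPM. Of the list, 16 genes had enough counts to test. By the exact binomial test 3 of them, Mir134, Mir138-1 and Mir138-2, were higher in replicate 1, beside 21.3% of all genes tested. In replicate 2, 0 of the 16 were higher, beside 20.4% of all genes tested. Mir138-1 and Mir138-2, like the Mir128 pair, share 1 arm and have 1 of their own, with log2 ratios of -0.34 and -0.50. The same holds for the arms of Mir218-1 and Mir218-2, with log2 ratios of 0.36 and -0.15, and of Mir7-1 and Mir7-2, with 0.02 and -0.08, and these 4 genes did not pass the exact binomial test. The median log2 ratio of the 16 genes with enough counts was -0.11, beside -0.01 over all genes tested. The negative binomial test called 0 of them.

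**Figure D3:**
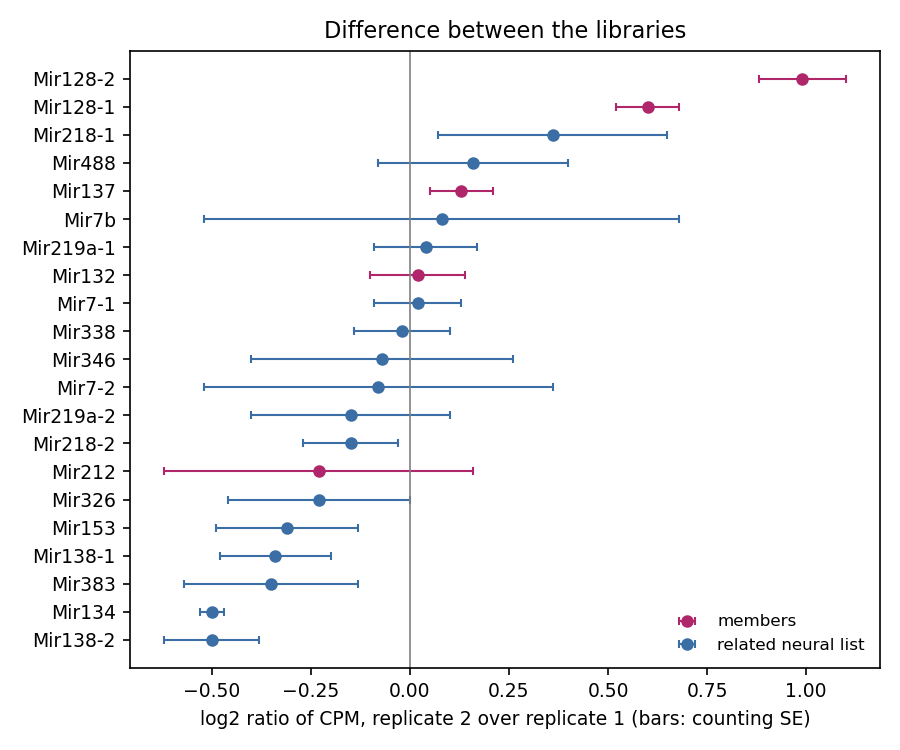
Log2 ratio of CPM in replicate 2 over replicate 1 for the neural genes (magenta) and the further list (blue) with 10 or more counts in the sum; bars are counting SE. Mir128-2 and Mir128-1 lie farthest to the right, at 0.99 and 0.60, and Mir134 and Mir138-2 farthest to the left, at -0.50.

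The Hox cluster and cartilage markers of the labelled tissue were all detected and stood well above the neural genes. The Hox cluster genes Mir196b, Mir10a, Mir10b and Mir615 summed to 124873 CPM in replicate 1 and 111534 in replicate 2, against 412 and 547 CPM for the 10 neural genes. The sum of the Hox cluster genes was 247 times that of the neural genes over both libraries, and that of Mir140 and Mir455 of cartilage 53.4 times. Most of the Hox cluster sum was Mir196b, at 86831 ± 9376 CPM. The muscle genes Mir206, Mir1a-1 and Mir133b summed to 4.99 times the neural genes, and the sensory cell genes Mir183, Mir96 and Mir182 to 13.2 times. The muscle sum was nearly all Mir206, at 2347 ± 213 CPM. Mir133b, at 45.1 ± 2.52 CPM, stood below Mir137, Mir132 and the Mir128 pair, and Mir1a-1, with 11 and 0 counts, was not detected. Red blood cell genes (Mir451a, Mir144 and Mir486) summed to less than the neural genes in both libraries, 257 and 180 CPM. Within the red blood cell class 2 genes, Mir451a and Mir144, were lower in replicate 2 and 1, Mir486, was higher by the exact binomial test. The ectoderm genes Mir205, Mir203 and Mir200c summed to 28.3 times the neural genes. Mir126a of endothelium stood at 39.6 times and Mir375 of endocrine cells at 3.15 times their sum. The glial genes Mir219a-2 and Mir338 summed to less, 0.181 times. All these classes hold 1 to 4 genes, and reads with several places are left out of each. How many reads each class lost in this way was not measured, and the loss need not be equal. Of the 10 neural genes, 7 belong to multi-copy families.

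The genes most like Mir137 in both libraries, by distance over log2(CPM + 1) among 1972 genes, were Mir672 (140 and 161 CPM, distance 0.05), Mir101a (139 and 148 CPM, 0.10) and Mir679 (130 and 150 CPM, 0.16). Those most like Mir132 were Mir877 (78.2 and 77.4 CPM, 0.02), Mir190a (79.3 and 71.9 CPM, 0.13) and Mir145a (78.7 and 71.3 CPM, 0.13). With 2 libraries this likeness is one of level alone.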

How the data were processed

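Raw read counts of each microRNA gene were deposited as whole numbers, and the README deposited with each library names the assembly mm10 and the annotation GENCODE M4. The aligner, the counting program and the adapter trimming were not stated in these sources. Each table has 3 count columns, of which the first equalled the sum of the other two in every gene; the second, taken as reads on the strand of the gene, was used. Totals leave out the 4 rows without a gene name; reads with several places made up 27.2% and 23.7% of all reads. Identifiers were matched without version to GENCODE M21 (GRCm38, the same assembly as mm10), 1894 of 1973, and sequences by symbol to RefSeq (GRCm38.p6). Arms and 20-base stretches were compared between annotated hairpins, not with the whole genome.

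CPM were computed on gene counts, with Poisson and Clopper-Pearson intervals at 95% (scipy 1.17.1). Libraries were compared by an exact binomial test over genes with 10 or more counts in the sum, adjusted by Benjamini-Hochberg. The code was tried on simulated libraries with counting error alone. These leave out the spread between real libraries, so they cannot show how the test behaves with it. Log2 ratios add 0.5 counts. Alternatives used edgeR 4.0.16 and DESeq2 1.42.0 scaling in R 4.3.3. All 10 genes are named; the further list is named where detected (the lowest, Mir129-1 and Mir129-2, were added after their values were seen), and the genes most alike are the nearest 3. The members and lists were chosen with earlier results of these data known. The labels call the libraries biological replicates from separate pools.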

Additional observations from a re-analysis of the deposited data

How the results depend on the processing

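The 4 genes detected at 10 CPM were 6 of 10 at 1 CPM (21.1% of all genes) and 2 at 100 CPM (9.43%), and stayed 4 with trimmed-mean scaling, with both strands and with either library alone. The summed share of 0.048% became 0.0189% as a share of all reads in the tables, since that total includes rows that name no gene, and 0.0236% for the single-copy genes alone. Between single libraries it ranged from 0.0412% to 0.0547%, and the ratio of Mir132 to Mir212 from 10.3 to 12.3. The 2 genes that differed between the libraries were Mir128-1 and Mir128-2 with every scaling, with no filter on low counts and with both strands. Over all genes tested, 186 of 436 passed with trimmed-mean scaling and as many with DESeq2 scaling. With no filter 174 of 717 passed, and with both strands 190 of 445. Under the negative binomial test, which adds the spread between the libraries to counting error, 0 of all 436 genes tested differed. That spread came from the same 2 libraries, so this test cannot decide whether the pair differs. Trimmed-mean and DESeq2 scaling moved the mean level of none of the 10 genes by more than its SD between the libraries. No paired analysis was possible because there is 1 group. Counting error was widest, relative to the level, for Mir9-3 and Mir212, the genes with the fewest counts above 0.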
